A study of Homo sapiens with 16 samples.

Results

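The metallothionein genes MT1E, MT1F, MT1G, MT1M, MT1X and MT2A were followed by bulk RNA-seq in MCF10A cells, a line of human breast epithelial cells that became immortal in culture without being tumorigenic. The 6 members were taken from the 26475 rows of the deposited count table by gene symbol. They were chosen with earlier results of these data known. The 16 libraries formed 4 groups of 4. Control cells received the vehicle DMSO and no collagen, Collagen cells received collagen I with DMSO, DDR1i cells received collagen I with DDR1-IN-1, a small-molecule inhibitor of the collagen-binding receptor tyrosine kinase DDR1, and RUNXi cells received collagen I with AI-10-104, an inhibitor of the binding of RUNX factors to their partner CBFβ. Collagen was present at 0.05 mg/mL for 24 h, DDR1-IN-1 at 2 µM for 48 h and AI-10-104 at 5 µM for 48 h. All groups shared a growth medium with hydrocortisone, a glucocorticoid. No group had an inhibitor without collagen, so that a difference between an inhibitor group and Control carried both treatments at once. The design compared collagen with its absence, each inhibitor with collagen alone, and the inhibitors with each other.

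Metallothioneins are small proteins rich in cysteines, which bind zinc, copper and cadmium. Their genes are switched on by metals through the zinc-sensing transcription factor MTF1, which binds metal response elements in their promoters, and they also respond to glucocorticoids and to oxidative stress. In breast epithelium they are known from basal, myoepithelial cells and from a subset of tumors.

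The transcript totals of the libraries ranged from 12184619 to 44332378 counts, with a median of 23175004. Collagen replicate 3 had been set aside by the authors as an outlier in a principal component analysis and was left out of the tests, while its levels are given below with those of the others. Of 8 basal and epithelial markers, all had counts in every library, with KRT5 at 6971 to 11592 counts per 1000000 counts (CPM). Of 7 markers of other cell types, HBB and PGR were at 0 in all 16 libraries, PTPRC had a single count, and the 7 together reached at most 8.66 CPM in any library. The summed level of the epithelial markers was 17162 to 21707 CPM in Control, 17399 to 23850 in Collagen, 12000 to 16206 in DDR1i and 19543 to 22327 in RUNXi. The DDR1i libraries lay below all others in that sum. KRT14, a basal keratin, was lower in DDR1i than in Control by edgeR's quasi-likelihood test (log2 fold change -0.79 ± 0.10 SE, adjusted p = 0.000616). The part of these shifts in the metallothionein values was not tested.

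All members lie in a single cluster on chromosome 16. In GRCh37, the build used by the authors for alignment, MT2A spans chr16:56642496-56643409, MT1E chr16:56659387-56661024, MT1M chr16:56666571-56667893, MT1F chr16:56691643-56694610 and MT1X chr16:56716382-56718108, all on the plus strand. MT1G, at chr16:56700642-56701977, is the member on the minus strand. The members aligned below are closely alike in the second exon, where a large part of the metal-binding cysteines is encoded. In the following sequences from GRCh37, capitals mark bases that differ from MT2A.
MT2A: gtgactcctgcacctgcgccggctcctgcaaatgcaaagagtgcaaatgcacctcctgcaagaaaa
MT1E: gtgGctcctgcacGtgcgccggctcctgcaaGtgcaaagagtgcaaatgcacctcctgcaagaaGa
MT1X: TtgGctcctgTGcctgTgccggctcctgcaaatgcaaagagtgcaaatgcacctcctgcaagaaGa
MT1F: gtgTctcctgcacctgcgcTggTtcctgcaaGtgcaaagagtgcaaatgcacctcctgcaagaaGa
MT1M: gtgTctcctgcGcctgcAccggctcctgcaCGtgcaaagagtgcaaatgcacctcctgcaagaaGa
MT1L: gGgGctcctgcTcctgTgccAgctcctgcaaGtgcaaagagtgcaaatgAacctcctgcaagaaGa
Over these 66 bases, MT1E differed from MT2A at 4 positions (93.9% identity), MT1F at 5 (92.4%) and MT1X and MT1M at 6 each (90.9%). MT1L, a transcribed pseudogene of the cluster that is no member, differed at 8 and kept 6 of the 7 cysteine codons that the others carry in this stretch. Exon 2 of MT1G is 69 bases long and is therefore not aligned here. The longest stretch shared letter for letter with another family transcript was 68 bases for MT2A, 79 for MT1E, 64 for MT1F and 96 for MT1X, each shorter than the 150-base reads. Of all windows of 50 bases in the spliced transcripts, 10.2% in MT2A, 10.0% in MT1E, 6.1% in MT1F and 18% in MT1X occurred in another family transcript. How the authors' counting treated reads that matched several genes is not given in the sources used here, so the split of reads between these paralogs, and above all the values of the weakest ones, is uncertain.

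MT2A was by far the most abundant member, and 2 members were hardly detected. Over the 16 libraries MT2A collected 1601552 counts and ranked 8th of all genes, MT1E 125257, MT1X 27212 and MT1F 1223. MT1G had 7 counts, never more than 1 in a library. MT1M had 0 counts in every library, which allows a level of up to 0.0677 to 0.246 CPM, depending on the depth of the library (3 counts of the total; counting error only). Per kilobase of spliced transcript, the mean level was 10730 normalized CPM for MT2A (range over the 16 libraries, 7600 to 13936), 853 for MT1E (532 to 1113), 180 for MT1X (126 to 229) and 7.91 for MT1F (2.80 to 15.9). These ranges did not overlap, and the order MT2A, MT1E, MT1X, MT1F held in every library. On this scale the mean of MT2A was 12.6 times that of MT1E, MT1E 4.74 times MT1X, and MT1X 22.8 times MT1F. Position in the cluster did not order the levels, since MT1X, the member farthest from MT2A, outranked MT1F and MT1G in between.

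**Figure D1:**
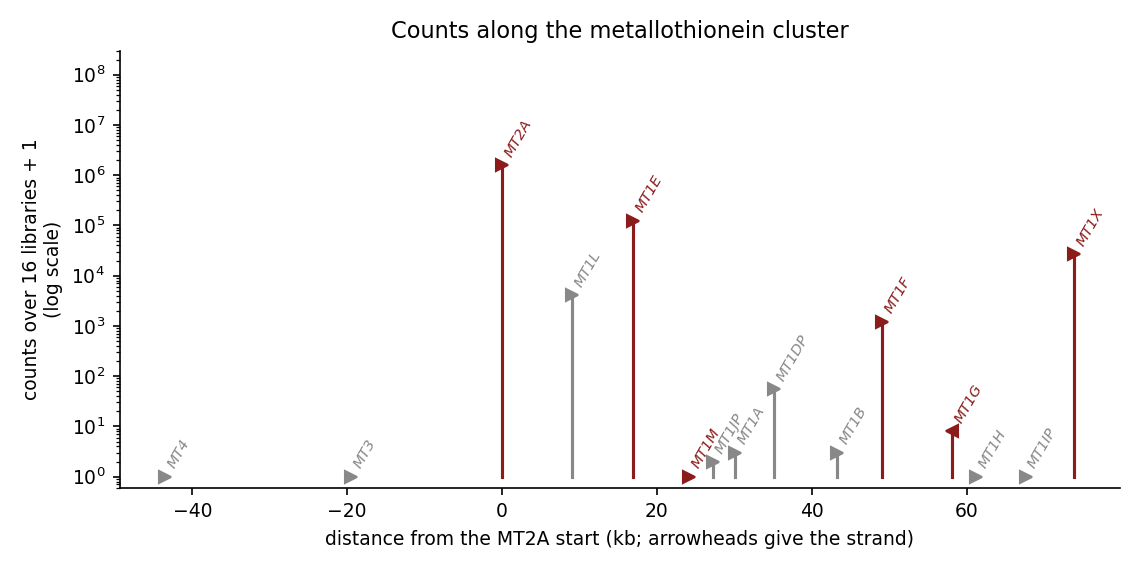
Counts of the metallothionein rows of chromosome 16 summed over 16 libraries (log scale, 1 added), by distance from the MT2A start in kb; members are in red, other family rows in grey, and arrowheads point along the strand. MT2A, MT1E and MT1X stand above all other rows, and MT1M lies at 0 between MT1E and MT1A.

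Of the 15 other family genes and pseudogenes looked for, 10 had a row in the table, of which 5 (MT1H, MT1HL1, MT1IP, MT3 and MT4) were at 0 in all libraries. MT1L was the sole family row outside the members with enough counts to be tested, at 6.24 to 19.0 normalized CPM. The brain-associated MT3 and the squamous epithelial MT4 were thus not detected at this depth.

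The 4 members with a level were compared library by library. MT2A was at 3653, 3350, 3944 and 3048 normalized CPM in Control replicates 1 to 4 and at 3320, 3914, 3739 and 5138 in Collagen. In DDR1i it was at 5279, 4395, 5588 and 5436, and in RUNXi at 4029, 4112, 4852 and 5046. Every library with an inhibitor thus lay above every Control library, while Collagen spread over nearly the whole range of the others, with replicate 4 standing high. MT1E, the second most abundant member, was at 282, 366, 311 and 212 in Control and at 349, 396, 321 and 351 in Collagen. It was at 443, 369, 438 and 355 in DDR1i and at 312, 302, 332 and 291 in RUNXi. All DDR1i libraries were above all RUNXi libraries in MT1E, and all RUNXi libraries were below the 3 Collagen libraries that entered the tests. The share of all genes that separate groups in this way was not counted, so it is open whether such separations are unusual here.

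MT1X did not follow MT2A. It was at 71.5, 74.6, 87.4 and 50.9 normalized CPM in Control and at 78.6, 92.7, 76.0 and 87.0 in Collagen. In DDR1i it was at 83.4, 64.5, 77.6 and 52.5, and in RUNXi at 61.2, 64.8, 83.7 and 59.1. The 4 groups overlapped, with Collagen having the highest mean (83.6 ± 7.65, SD, n = 4) against 71.1 ± 15.1 in Control, 69.5 ± 13.8 in DDR1i and 67.2 ± 11.2 in RUNXi. MT1F was weak and scattered, with 2.49 to 3.84 in Control, 2.23 to 5.11 in Collagen, 2.63 to 6.76 in DDR1i and 1.19 to 3.93 in RUNXi. These values rested on 29 to 152 counts per library, and all groups overlapped.

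**Figure D2:**
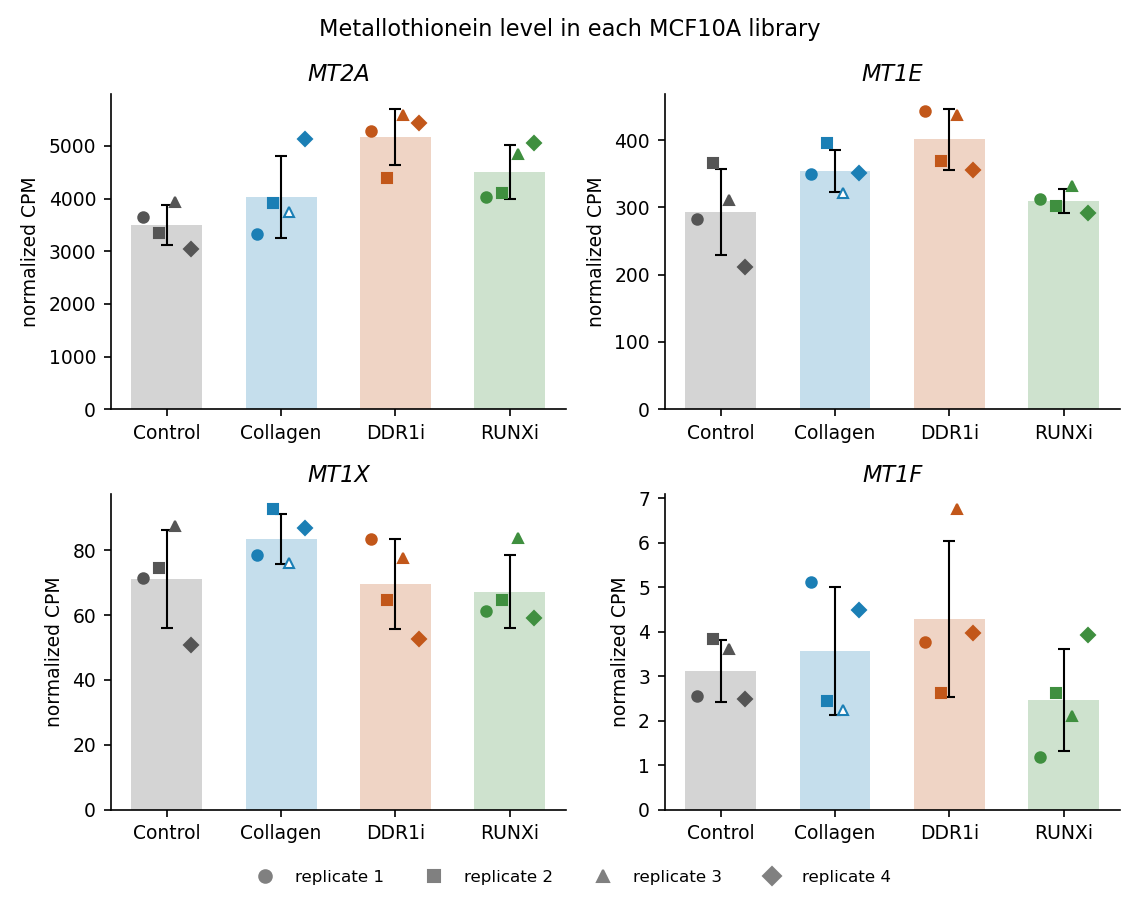
Normalized CPM of MT2A, MT1E, MT1X and MT1F in each library; bars give group means, error bars the SD (n = 4), symbols the replicate number, and the open symbol Collagen replicate 3, which no test used. All 8 MT2A values with an inhibitor lie above the Control values, and MT1X shows no such separation.

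MT2A was the member that passed the test, in DDR1i against Control. There it was 1.49-fold higher (log2 fold change 0.57 ± 0.10 SE, 95% interval 0.37 to 0.77, adjusted p = 0.00801 by edgeR's quasi-likelihood test, adjusted by the Benjamini-Hochberg procedure over 13213 genes). It was the single call among the 4 members tested in this comparison, beside 0.151% of all genes called higher and 0.0605% called lower. MT1E was at 0.46 ± 0.13 (95% interval 0.20 to 0.72) and did not pass (adjusted p = 0.229). With the replicate number as a block in the fit, MT1E was called as well, beside 0.878% of all genes tested. MT1X was at -0.02 ± 0.17 (adjusted p = 0.998) and MT1F at 0.47 ± 0.52 (adjusted p = 0.998). The MT2A call was lost without Control replicate 2 (log2 fold change 0.56, adjusted p = 0.0565) and without DDR1i replicate 3 (0.54, adjusted p = 0.0664). It was also lost when a spline took each library's dependence on transcript length out of the counts (0.31, adjusted p = 0.588).

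Transcript length moved with the groups and bears on all members, whose spliced transcripts are 398 to 425 bases long. Among other genes tested with canonical transcripts of 300 to 600 bases, the median log2 fold change was 0.09 in DDR1i against Control (213 genes) and 0.33 in Collagen against Control (203 genes), while over all genes it was 0.01 in both. It was -0.23 in DDR1i and -0.27 in RUNXi against Collagen (228 genes), where the medians of all genes were 0.00 and 0.01. The MT2A value in DDR1i against Control was 0.57, beside the median of 0.09 for short transcripts. It was lower with the length trend removed, as given above, so the class median does not measure the part of length in this value. The Collagen values of all members were close to the median of short transcripts in that comparison. The part of the length trend in each member's value was not tested beyond the fits with the trend removed.

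**Figure D3:**
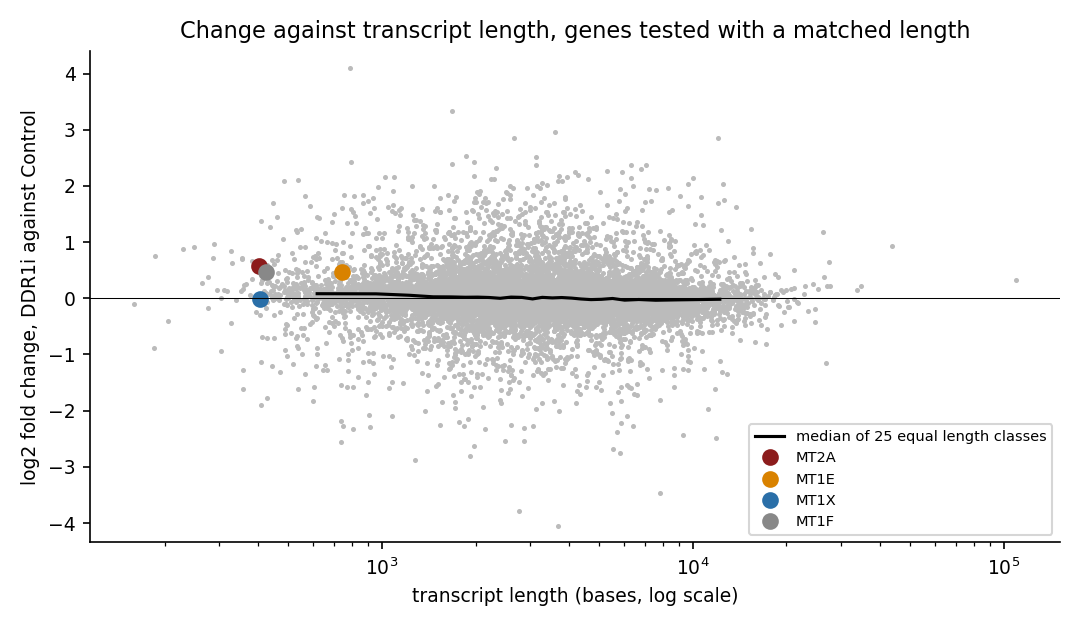
Log2 fold change in DDR1i against Control by canonical transcript length (log scale) for the genes tested with a matched length; the black line joins medians of 25 classes of equal gene number. MT2A, MT1F and MT1E lie above the line, and MT1X lies near 0. MT1E is drawn at its canonical transcript of 746 bases, which retains an intron.

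Against Control, RUNXi changed no member past the threshold, where 0.242% of all genes were called higher and 0.159% lower. MT2A was 1.29-fold higher in RUNXi (log2 fold change 0.37 ± 0.10, 95% interval 0.17 to 0.57, adjusted p = 0.132). That was the member with an unadjusted p under 0.05 in this comparison, beside 900 of 13213 genes. DESeq2 made no call among the members, whereas edgeR without the filter on low counts called MT2A (0.36, adjusted p = 0.0266), beside 0.436% of all genes tested. With the replicate number as a block in the fit, edgeR also called MT2A, beside 1.23% of all genes tested. The numbers are not stated to mark shared cultures. MT1E was at 0.08 ± 0.13, MT1X at -0.08 ± 0.17 and MT1F at -0.33 ± 0.52.

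Collagen alone changed no gene at the threshold against Control (0.0% of 13092 genes by edgeR, with 13.4% at an unadjusted p under 0.05, whereas DESeq2 called 5.81% of the genes it adjusted). All 4 members had positive estimates, namely 0.25 ± 0.14 for MT2A, 0.33 ± 0.16 for MT1E, 0.29 ± 0.18 for MT1X and 0.37 ± 0.57 for MT1F. None reached an unadjusted p under 0.05, and DESeq2 called none of the 3 it adjusted, MT1F being without an adjusted p. With the length trend removed, for which MT1E was taken at its canonical length of 746 bases, the estimates were -0.10 for MT2A, -0.001 for MT1E, -0.040 for MT1X and 0.037 for MT1F, so that no direction can be given for collagen.

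Against Collagen, neither inhibitor changed a member at the threshold. For DDR1i, where 1.69% of all genes were called higher and 0.775% lower, MT2A was at 0.33 ± 0.13 (95% interval 0.05 to 0.60, adjusted p = 0.188) and MT1X at -0.31 ± 0.15 (95% interval -0.63 to 0.01, adjusted p = 0.295). MT1E was at 0.13 ± 0.11 and MT1F at 0.09 ± 0.49. A single member, MT2A, had an unadjusted p under 0.05, beside 2442 of 13548 genes. DESeq2 called none of the 3 members other than MT1F that it adjusted. The MT2A estimate depended on Collagen replicate 4, the highest of its group, without which it was 0.52 (adjusted p = 0.0287), and on Collagen replicate 1, the lowest, without which it was 0.17 (adjusted p = 0.595).

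For RUNXi against Collagen, 2.59% of all genes were called higher and 1.46% lower. MT1X was at -0.37 ± 0.15 (95% interval -0.68 to -0.05, adjusted p = 0.169) and MT1E at -0.25 ± 0.11 (95% interval -0.47 to -0.02, adjusted p = 0.202), both with an unadjusted p under 0.05. Over all genes, 2853 of 13548 had such a p. MT2A was at 0.12 ± 0.13 and MT1F at -0.70 ± 0.49, and DESeq2 called none of the 3 members it adjusted, again without MT1F. The estimates of MT1X and MT1E lay on either side of the median of short transcripts in this comparison.

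The inhibitors were also compared with each other at their own doses and equal times, with 0.347% of all genes called higher and 0.221% lower in DDR1i than in RUNXi. MT1E was 1.30-fold higher with DDR1i (log2 fold change 0.38 ± 0.10, 95% interval 0.17 to 0.59), but edgeR's adjusted p was 0.141. DESeq2 called this difference (0.38, adjusted p = 0.0301), beside 0.905% of the genes it adjusted. So did edgeR with the replicate number as a block, beside 1.14% of all genes tested. MT2A differed by 0.20 ± 0.12 (95% interval -0.05 to 0.46) and MT1X by 0.06 ± 0.14 (95% interval -0.24 to 0.35), so that differences of up to 1.37-fold in MT2A and 1.28-fold in MT1X lie within the intervals. MT1F differed by 0.79 ± 0.46, with an interval from -0.15 to 1.74.

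**Figure D4:**
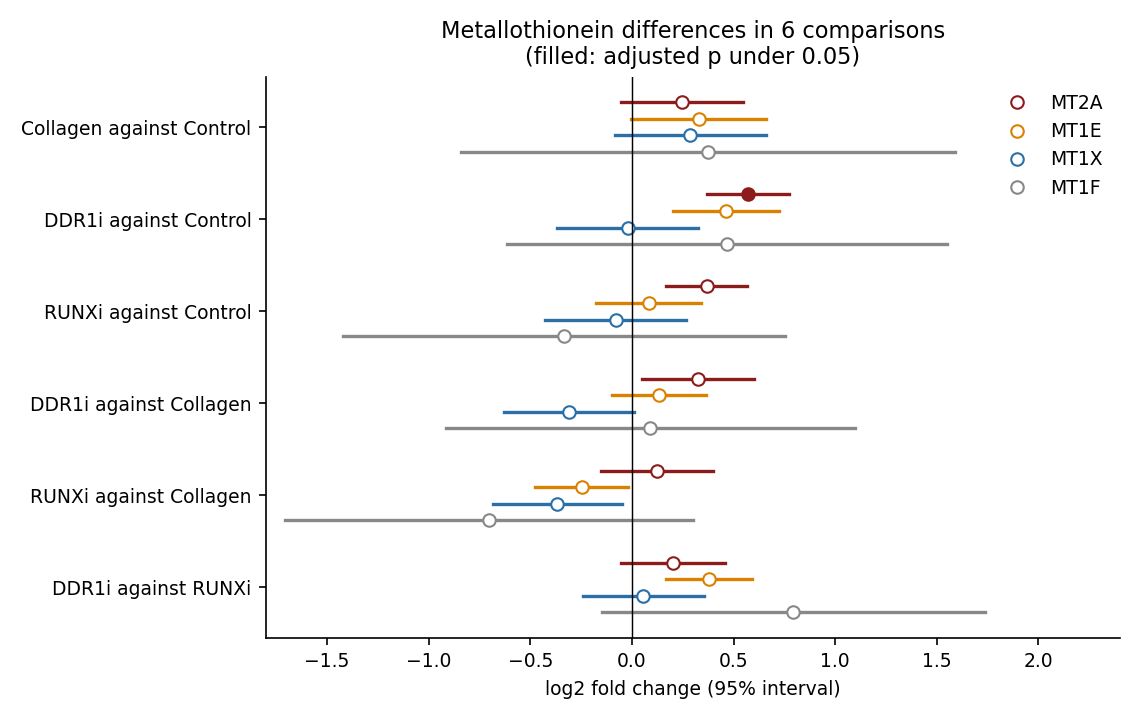
Log2 fold change with its 95% interval for the 4 tested members in 6 comparisons; a filled point marks an adjusted p under 0.05. MT2A in DDR1i against Control is the filled point, at 0.57, and the intervals of MT1F span more than those of all others.

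The make-up of the metallothionein transcript pool was described by ratios within each library, which do not depend on the scaling between libraries. MT1X stood at 1.96, 2.23, 2.22 and 1.67 counts per 100 MT2A counts in Control replicates 1 to 4 and at 2.37, 2.37, 2.03 and 1.69 in Collagen. It stood at 1.58, 1.47, 1.39 and 0.967 in DDR1i and at 1.52, 1.57, 1.72 and 1.17 in RUNXi. All DDR1i libraries were below all Control and Collagen libraries, and RUNXi overlapped with both through its replicate 3. How often the ratios of other genes separate the groups was not counted. In each of the 4 groups the lowest of these ratios belonged to the library numbered 4. MT1E stood at 8.37 ± 1.76 per 100 MT2A counts in Control, 9.01 ± 1.67 in Collagen, 7.79 ± 0.880 in DDR1i and 6.93 ± 0.858 in RUNXi (SD, n = 4), with overlap between all groups. MT2A made up 88.3% to 93.4% of the counts of the 6 members in every library. The summed level of the members was 3866 ± 433 normalized CPM in Control, 4469 ± 788 in Collagen, 5650 ± 562 in DDR1i and 4889 ± 519 in RUNXi. The sum in DDR1i was 1.46 times that in Control and 1.23 times that in Collagen replicates 1, 2 and 4, and in RUNXi it was 1.26 and 1.07 times. As these are bulk samples, a change in all cells and a change in some of them cannot be told apart.

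**Figure D5:**
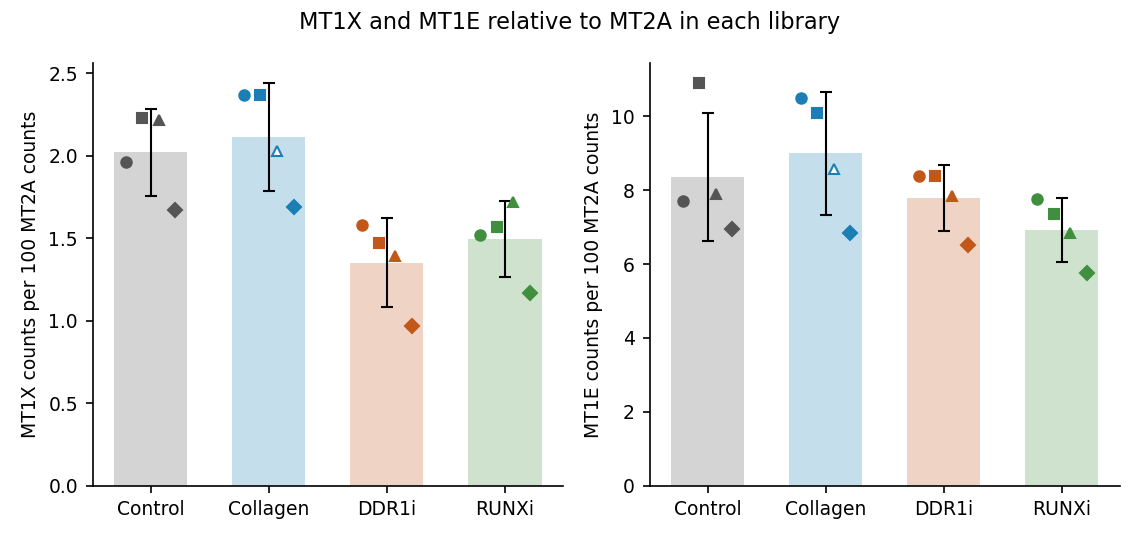
MT1X (left) and MT1E (right) counts per 100 MT2A counts in each library; bars are group means, error bars the SD (n = 4), and symbols the replicate number as in the plot of levels. The DDR1i values of MT1X, 0.967 to 1.58, lie below all Control and Collagen values.

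Members varied together across the libraries to different degrees. Over the 16 libraries, the Pearson r of log2 CPM was 0.57 between MT1E and MT1X, 0.56 between MT1E and MT2A, and 0.09 between MT1X and MT2A. MT1L, which lies between MT2A and MT1E in the cluster, had r = 0.78 with MT1E, 0.65 with MT1X and 0.52 with MT2A. These are descriptions, since the libraries share the treatments and since reads from stretches that the transcripts share may be counted for another member. The genes outside the family whose levels were most like the mean of the 4 members were GNAI2, a G protein subunit (r = 0.87), EFHD2 (0.84), the microsomal glutathione S-transferase MGST3 (0.84), the tubulin-folding cofactor TBCB (0.83) and the tetraspanin CD63 (0.83). That mean of log2 CPM gave each member the same weight, also MT1F with its 29 to 152 counts per library. The r values are the highest of all genes searched, over 16 libraries. None of these 5 genes is in the zinc or copper lists described below. Those lists hold 18 and 12 tested genes, beside 13518 genes that passed the filter. Such an absence was therefore likely beforehand, and nothing about metals follows from it. For single members the closest genes were ACOT7 for MT2A (r = 0.86), TPM2 for MT1E (0.83), PTGES2 for MT1X (0.92) and MRM1 for MT1F (0.83), a different gene for each.

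The promoters of MT2A and MT1X, the members with an entry in the RefSeq promoter table (GRCh38.p14), are shown because their levels followed different patterns and both are textbook targets of MTF1. The 250 bases before the start are given, and capitals mark the core of the metal response element, TGCACNC or TGCGCNC, on either strand.
MT2A, chr16:56608334-56608583: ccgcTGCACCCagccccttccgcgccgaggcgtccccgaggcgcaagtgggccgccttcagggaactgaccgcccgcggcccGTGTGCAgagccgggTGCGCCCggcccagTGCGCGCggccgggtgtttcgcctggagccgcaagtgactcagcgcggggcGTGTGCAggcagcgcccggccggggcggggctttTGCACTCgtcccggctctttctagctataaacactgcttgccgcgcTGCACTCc
MT1X, chr16:56682220-56682469: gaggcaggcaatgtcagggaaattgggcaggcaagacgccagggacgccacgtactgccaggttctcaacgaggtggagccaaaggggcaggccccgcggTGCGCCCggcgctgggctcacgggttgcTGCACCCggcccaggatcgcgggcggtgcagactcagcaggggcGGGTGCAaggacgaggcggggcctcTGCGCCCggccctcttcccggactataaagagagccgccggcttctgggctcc
MT2A held 7 matches, from 246 to 8 bases before the start, and MT1X 4, from 150 to 53 bases before it, none overlapping another. Of 27305 promoters of the same length, 24.7% held at least 1 match and 0.37% at least 4. Neither promoter held the RUNX motif TGTGGT or TGCGGT (in 16.1% of all promoters) or the glucocorticoid receptor half-site TGTTCT (12.4%), and each held 1 match to the antioxidant element TGACNNNGC (11% of all promoters). These matches are a description of the letters and not of binding. The search covered these 250 bases and these exact letters only. A glucocorticoid or RUNX site farther upstream or with other letters would have been missed, so the promoters cannot be said to lack one. MT1E, MT1F, MT1G and MT1M have no entry in the table.

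Among genes that handle zinc and copper, edgeR made no call. Of 25 zinc genes (MTF1, the SLC30 exporters and the SLC39 importers), 18 were tested and 0 were called by edgeR in any of the 6 comparisons, with 0 to 5 per comparison at an unadjusted p under 0.05. DESeq2, which adjusted 15 to 18 of them per comparison, called SLC39A10, a zinc importer, in RUNXi against Collagen. Their median log2 fold change ran from -0.11 to 0.15, against medians of 0.00 to 0.01 over all genes. MTF1 itself was at 27.6 ± 9.70 normalized CPM in Control, 23.7 ± 3.94 in Collagen, 28.0 ± 3.95 in DDR1i and 26.1 ± 4.94 in RUNXi (SD, n = 4), and its log2 fold change in DDR1i against Control was 0.03 ± 0.23. SLC30A1, the plasma membrane zinc exporter that MTF1 is known to induce together with the metallothioneins, was at 46.9 ± 7.87, 35.8 ± 13.8, 40.5 ± 7.81 and 44.6 ± 5.82 in the same groups. Where MT2A was higher, in DDR1i against Control, SLC30A1 was at -0.20 ± 0.16 (adjusted p = 0.998). Of 12 copper genes, all were tested and 0 were called by edgeR in any comparison, with 0 to 4 per comparison at an unadjusted p under 0.05. DESeq2 gave an adjusted p to 6 to 12 of the 12, depending on the comparison, and called none of these. Over all genes, an unadjusted p under 0.05 was reached by 678 of 13213 in DDR1i against Control and by 900 of 13213 in RUNXi against Control. It was reached by 2442 and 2853 of 13548 in DDR1i and RUNXi against Collagen, and by 839 of 13548 between the inhibitors.

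Glucocorticoid-responsive genes were examined in the same way. Of 12 such genes, all tested, 0 were called by edgeR in DDR1i against Control (5 at an unadjusted p under 0.05, beside 678 of 13213 genes), where DESeq2 called ANGPTL4. NR3C1, the glucocorticoid receptor, was at -0.12 ± 0.14 there and FKBP5, a sensitive receptor target, at -0.38 ± 0.17 (adjusted p = 0.912). In DDR1i against Collagen 2 of the 12 fell, the phosphatase DUSP1 (-0.77 ± 0.13, adjusted p = 0.00280) and the transcription factor CEBPD (-0.79 ± 0.18, adjusted p = 0.0172). In RUNXi against Collagen CEBPD fell (-0.79 ± 0.18, adjusted p = 0.0178) and ZBTB16 rose (1.58 ± 0.40, adjusted p = 0.0290). DUSP1 was lower in DDR1i than in RUNXi (-0.55 ± 0.12, adjusted p = 0.0235 by edgeR's quasi-likelihood test). The calls against Collagen, here and in the lists below, rest on fits without Collagen replicate 3. With that library, calls over all genes fell from 334 to 9 for DDR1i and from 549 to 60 for RUNXi.

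Of 13 oxidative and heat stress genes, all tested, RUNXi raised 4 and lowered 1 against Collagen. HMOX1, heme oxygenase, rose by 1.34 ± 0.38 (adjusted p = 0.0448), TXNRD1, thioredoxin reductase, by 0.88 ± 0.13 (adjusted p = 0.000215), GCLC, a glutathione synthesis enzyme, by 0.77 ± 0.15 (adjusted p = 0.00943) and the quinone reductase NQO1 by 0.51 ± 0.13 (adjusted p = 0.0298). The chaperone DNAJB1 fell by 0.65 on the log2 scale (adjusted p = 0.0203). NQO1 (0.81 ± 0.12) and TXNRD1 (0.61 ± 0.13) were also called higher in RUNXi against Control. DESeq2 further called GCLM higher in RUNXi against Collagen, beside 11.1% of the genes it adjusted. It called GCLC and HMOX1 higher in RUNXi against Control, beside 1.04%. In DDR1i against Control, 0 of the 13 were called by edgeR or DESeq2, and 2 had an unadjusted p under 0.05. In DDR1i against Collagen the cystine transporter SLC7A11 fell (-0.79 ± 0.21, adjusted p = 0.0491). Between the inhibitors, SLC7A11, GCLC, NQO1 and TXNRD1 were lower in DDR1i, by 0.74 to 1.22 on the log2 scale. DESeq2 called HMOX1 lower there as well, beside 0.905% of the genes it adjusted. MT2A and MT1E had positive estimates in DDR1i against RUNXi, as given above, which edgeR did not call without the replicate block. A relation of the members to the stress genes was not tested.

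Of 8 genes that flank the cluster, 7 were tested. HERPUD1, a stress gene of the endoplasmic reticulum that lies 323.6 kb from the MT2A start, fell in DDR1i against Collagen (-0.66 ± 0.17, adjusted p = 0.0351), and 0 were called by edgeR in the other 5 comparisons, with 0 to 2 at an unadjusted p under 0.05. DESeq2 also called HERPUD1 there and BBS2 in RUNXi against Collagen. In DDR1i against Control, where MT2A was higher, the median of the flanking genes was 0.03.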

How the data were processed

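Raw counts per gene were deposited for 16 MCF10A libraries (TruSeq, 150-base paired-end reads). According to the labels and methods, the authors aligned reads with STAR to hg19; the counting tool, annotation and strand setting are not given in the sources used here. Collagen replicate 3, an outlier of the authors' principal component analysis, was left out of tests. Counts were tested in edgeR 4.0.16 (R 4.3.3) with TMM scaling, filterByExpr and the robust quasi-likelihood fit, adjusted by Benjamini-Hochberg over all genes (threshold 0.05), in 3 fits: Collagen, DDR1i and RUNXi (11 libraries), Control and Collagen (7), and Control, DDR1i and RUNXi (12). MT1G and MT1M failed the filter. Levels are counts per 1000000 (CPM) on TMM-scaled library sizes of all 16 libraries; log2 CPM used a prior count of 2. SE and 95% intervals come from the quasi-likelihood F statistic.

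The fits were tested on simulated data. They called 56.9% of the planted changes in DDR1i against Collagen, 55.3% in DDR1i against Control and 31.3% in Collagen against Control. None had the wrong direction, and 3 to 5 unchanged genes were called. Each planted change was larger than any member's estimate, so a member without a call can still have changed. Replicates are labelled only by number, so p-values measure the spread between these libraries, which may be technical; in no pair of replicates did counts agree within sampling noise. The limit given for a count of 0 covers counting error only.

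Alternatives were DESeq2 1.42.0, its size factors, no filter, Collagen replicate 3 included, all 4 groups in 1 fit, a replicate block, each library's trend with transcript length removed (natural spline, 4 degrees of freedom), and each library left out; removal of the length trend together with inclusion of Collagen replicate 3 was added after the data were seen. Named were all members, family rows passing the filter, MTF1, SLC30A1, HMOX1, NR3C1 and FKBP5, up to 4 called genes per list and comparison, and the 5 genes most like the members; genes that DESeq2 alone called, the closest gene of each member, and the markers were named after their values were seen. Members and lists were chosen with earlier results of these data known. Positions and lengths came from GENCODE v44 lifted to GRCh37, promoters from RefSeq.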

Additional observations from a re-analysis of the deposited data

How the results depend on the processing

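The number of members called was 1 in DDR1i against Control and 0 in the other 5 comparisons. It became 0 in DDR1i against Control with the length trend removed, and it ranged from 0 to 1 when single libraries were left out (0 without Control replicate 2 or DDR1i replicate 3); in DDR1i against Collagen that range was also 0 to 1 (1, MT2A, without Collagen replicate 4). It became 1 in DDR1i against RUNXi with DESeq2 (MT1E, beside 0.905% of the genes DESeq2 adjusted). It also became 1 in RUNXi against Control without the filter (MT2A, beside 0.436% of all genes tested). With the replicate number as a block it became 2 in DDR1i against Control (MT2A and MT1E), 1 in RUNXi against Control (MT2A) and 1 in DDR1i against RUNXi (MT1E); calls over all genes went from 28 to 116, from 53 to 162 and from 77 to 154, and from 334 to 537 and 549 to 759 against Collagen. The numbers are not stated to mark shared cultures: 7 of 21 same-numbered pairs correlated above 0.1 in their deviations (range -0.07 to 0.25), 6 of them the pairs numbered 4, and 17 of 21 correlated best with their own number. With Collagen replicate 3 included, calls over all genes against Collagen fell from 334 to 9 for DDR1i and from 549 to 60 for RUNXi. With single libraries left out, they ranged from 60 to 662 for DDR1i and from 123 to 715 for RUNXi. The genes named from the lists were not followed in these fits.

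Of 432 alternative fits of single members, 402 kept direction and side of the threshold. The sign turned with the block for MT1F in DDR1i against Collagen (-0.048); with the length trend removed for MT1X in DDR1i against RUNXi (-0.011), MT1E in RUNXi against Control (-0.054), and in Collagen against Control for MT2A (-0.10), MT1E (-0.001) and MT1X (-0.040); and, with Collagen replicate 3 added to that fit, at -0.012 for MT1X between inhibitors and -0.12 (MT2A), -0.021 (MT1E), -0.078 (MT1X) and -0.13 (MT1F) for Collagen. Leaving out single libraries turned signs within -0.21 to 0.28 for MT1F in DDR1i against Collagen, -0.036 to 0.32 for MT2A in RUNXi against Collagen (negative without Collagen replicate 1), -0.039 to 0.18 for MT1X between inhibitors, -0.15 to 0.10 for MT1X in DDR1i against Control, and -0.044 to 0.21 for MT1E and -0.21 to 0.032 for MT1X in RUNXi against Control. The summed level over Collagen ranged from 1.13 to 1.39 times for DDR1i and from 0.979 to 1.20 for RUNXi, highest without Collagen replicate 4 and lowest for RUNXi without Collagen replicate 1. The cause of these shifts was not tested. Depth limits MT1F, MT1G and MT1M.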

Other observations

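MT1L, the transcribed pseudogene between MT2A and MT1E, was at 8.32 ± 2.57 normalized CPM in Control, 12.7 ± 2.37 in Collagen, 13.9 ± 3.87 in DDR1i and 9.81 ± 3.78 in RUNXi (SD, n = 4), and edgeR's quasi-likelihood test called it in 0 of 6 comparisons (2 at an unadjusted p under 0.05). DESeq2 gave it no adjusted p in DDR1i against Collagen and Collagen against Control and did not call it elsewhere. MT1DP, another pseudogene of the cluster, had 54 counts in all. Its 2 highest libraries were Collagen replicate 3 with 20 counts and DDR1i replicate 3 with 17, and it was chosen for mention after its values were seen.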
